A study of Mus musculus with 1 sample.

Results

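The purinergic genes examined here were 8 nucleotide receptors (P2rx4, P2rx7, P2ry1, P2ry2, P2ry6, P2ry12, P2ry13 and P2ry14) and 2 ectonucleotidases (Entpd1 and Nt5e) in mouse mixed glia of the ventral midbrain (VM). The members were chosen by gene symbol, and all 10 were found once each among the 23282 rows of the table. The study tested inhibition of the kinase SGK1 by GSK650394 in such cultures, prepared from mice labelled as ICR(CD-1), an outbred stock. The library analysed here was the control culture (labelled Cont, postnatal day 5), and the study describes its controls as treated with the vehicle DMSO. Its values are labelled mAst_Cont_DMSO, and the part mAst was not interpreted here. Whether a toxin had been added to this culture, and whether animals were pooled, was not given in the sources used here. Inhibitor-treated glia were not analysed here, so the data were 1 library with no replicate, no error and no test, and each value below describes that library alone.

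Extracellular ATP, ADP, UTP and UDP are danger and coordination signals between glia. P2X receptors are ATP-gated cation channels, whereas P2Y receptors couple to G proteins. Ectonucleotidases end the signal by stepwise hydrolysis: ENTPD1 (CD39) converts ATP and ADP to AMP, and NT5E (CD73) converts AMP to adenosine, which acts on its own receptors. Microglia use P2Y12 to sense ATP and ADP released from injured cells, P2Y6 to sense UDP during phagocytosis, and P2X7 to link high ATP to the NLRP3 inflammasome. Astrocytes use P2Y1 in calcium signalling. The study stimulated its cultures with ATP after lipopolysaccharide to activate this inflammasome.

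Several of these receptors are close relatives, and the question of whether their reads could be mixed up was examined on the sequences. The longest exact run shared by the coding sequences of any pair of members was 19 bases, between P2ry1 and P2ry2, followed by 17 bases between P2ry2 and P2ry6 and 16 bases between P2ry1 and P2ry6. The stretches around the 19-base run, in a part of the protein that all of these receptors conserve at the end of the third transmembrane helix, are shown with the shared run in capitals (GENCODE M21 transcripts, 5′ to 3′ along the coding strand, each inside 1 exon).
P2ry1, GRCm38 chr3:61003844-61003898, plus strand: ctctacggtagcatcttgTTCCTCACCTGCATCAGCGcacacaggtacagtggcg
P2ry2, GRCm38 chr7:100998694-100998748, minus strand: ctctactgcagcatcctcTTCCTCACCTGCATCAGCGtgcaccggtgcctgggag
The 17-base run of P2ry2 and P2ry6, which lie next to each other on chromosome 7, falls in another helix.
P2ry2, GRCm38 chr7:100998293-100998345, minus strand: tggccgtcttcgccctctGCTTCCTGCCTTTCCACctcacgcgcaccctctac
P2ry6, GRCm38 chr7:100938365-100938417, minus strand: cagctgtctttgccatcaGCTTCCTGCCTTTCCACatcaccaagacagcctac
P2rx4 and P2rx7 shared at most 13 bases. No word of 50 bases occurred in the transcripts of more than 1 member.

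Reads could be shared with other genes for part of the members. None of the 50-base words of P2ry2, P2ry6, P2ry12, P2ry13 or Entpd1 occurred on either strand in the transcripts of another annotated gene. The share was 1.63% for P2rx4 and 1.17% for P2rx7, and 0.128% and 0.009% for Nt5e and P2ry14. In P2ry1 it was 22.0%, because 992 bases of its exons (23.1%) are overlapped by the antisense transcript Gm37035, for which no value was used here. The strand setting of the counting was not stated, so the value of P2ry1 can include antisense reads. P2ry12 shared 9 bases of exon with Med12l on the opposite strand.

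All 10 members had a value of 10 or more, which is called detected below, against 67.2% of all rows (15648 of 23282). The deposited values are described as normalised read counts and were taken to grow with transcript length. Genes are therefore compared by a level. This is the value per 1000000 of the sum of all values (27569507), per kilobase of the union of annotated exons. The level of the median detected gene was 3.72. The levels of the members ran from 0.141 to 27.4, with a median of 5.25, and 6 of the 10 lay above the median detected gene. In the upper 25% of detected genes (levels of 11.6 or more, 25% of them by construction) were 2 members, P2ry6 and P2ry12. P2ry12 at 17.4 was the member just inside this limit and P2rx4 at 11.5 the member just outside.

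**Figure D1:**
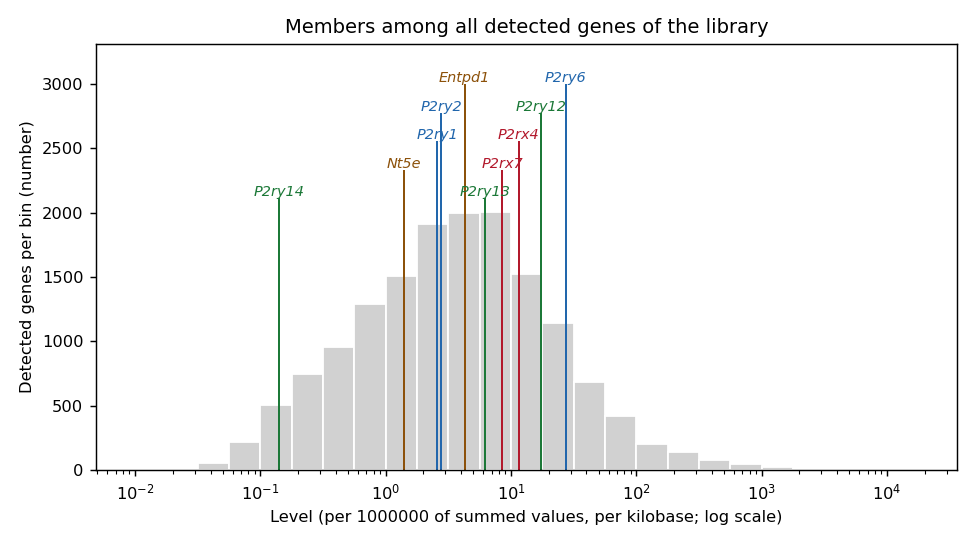
Levels of the members among the detected genes of the control library. The horizontal axis is the level per 1000000 of summed values and per kilobase (log scale), grey bars count the detected genes in each bin, and each coloured line is 1 member (red P2X, blue Gq-coupled P2Y, green Gi-coupled P2Y, brown ectonucleotidase). P2ry14 stands apart on the left at 0.141, and P2ry6 is furthest to the right at 27.4.

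The P2X channels were represented mainly by P2rx4 and P2rx7. P2rx4 (chromosome 5, 122707544 to 122729738 in GRCm38, plus strand) encodes a channel with high ATP affinity that is found in part on lysosomes. Its deposited value was 2232 and its level 11.5, above 74.9% of detected genes. P2rx7 (chromosome 5, 122643911 to 122691432, plus strand) encodes the low-affinity channel that opens at high ATP and drives potassium efflux. Its deposited value was 1398 and its level 8.49, above 68.8% of detected genes. The level of P2rx4 was 1.36 times that of P2rx7, and this ratio was larger with other gene lengths, up to 3.26, because the annotated exons of P2rx4 (7025 bases) include many that lie outside its RefSeq-matched transcripts (2702 bases).

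The other 5 P2X genes were far lower. P2rx6 had a value of 131 and a level of 1.19, P2rx5 a value of 64 and a level of 0.969, and P2rx3 a value of 14 and a level of 0.182. P2rx1 had a value of 1 and P2rx2 was listed at 0, so 3 of the 5 were detected, against 67.2% of all rows. Exons of P2rx6 overlap Slc7a4 (value 115) and those of P2rx3 overlap Ssrp1 (value 6920), each on the opposite strand. P2rx4 and P2rx7 together held 89.5% of the summed level of the 7 P2X genes (89.5 to 94.0% over the 4 ways of taking gene length), and the level of P2rx4 was 9.69 times that of P2rx6 (9.69 to 17.1).

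Among the Gq-coupled P2Y receptors, P2ry6 stood well above its relatives. P2ry6 (chromosome 7, 100937630 to 100974649, minus strand), the UDP receptor, had a value of 2180 and a level of 27.4, above 87.9% of detected genes. P2ry2 (chromosome 7, 100996568 to 101012866, minus strand), which responds to ATP and UTP, had a value of 300 and a level of 2.77. P2ry1 (chromosome 3, 61002795 to 61008982, plus strand), the Gq-coupled ADP receptor, had a value of 306 and a level of 2.59. The level of P2ry6 was 9.88 times that of P2ry2 and 10.6 times that of P2ry1, with lowest ratios of 8.26 and 8.10 over the gene lengths tried. P2ry1 and P2ry2 were close: their ratio ran from 0.790 to 1.02, so their order was not fixed. P2ry4, the remaining pyrimidine-sensing P2Y receptor, had a value of 3 and was not detected.

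The Gi-coupled receptors P2ry12, P2ry13 and P2ry14 are neighbours on chromosome 3, and their levels ran from the lowest of the members to the second highest. P2ry12 (59216272 to 59262871, minus strand), the ADP receptor of homeostatic microglia, had a value of 1218 and a level of 17.4, above 81.8% of detected genes. P2ry13 (59207892 to 59210882, minus strand), a further ADP receptor, had a value of 434 and a level of 6.23. P2ry14 (59113855 to 59153618, minus strand), which senses UDP-glucose and other UDP-sugars, had a value of 43 and a level of 0.141, above 3.60% of detected genes. The level of P2ry12 was 2.79 times that of P2ry13 (2.73 to 3.10 over the gene lengths) and 123 times that of P2ry14. The second ratio depends strongly on length, since the annotated exons of P2ry14 span 11059 bases and its coding part 1041 bases, and it was 28.3 with coding length.

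P2ry6 and P2ry12 held 34.7% and 22.0% of the summed level of the 14 P2X and nucleotide-sensing P2Y genes, and P2rx4 and P2rx7 held 14.6% and 10.8%. Over the gene lengths these shares ran from 30.5 to 38.3% for P2ry6, 16.1 to 22.0% for P2ry12, 14.6 to 26.4% for P2rx4 and 7.97 to 10.8% for P2rx7. P2rx4 held more than P2ry12 with each length other than the union of exons. P2ry13 held 7.90%, P2ry2 3.51%, P2ry1 3.28% and P2ry14 0.179%. The 8 receptor members together held 97.0% (97.0 to 97.6% over the gene lengths), and the other 6 genes the remainder. This share, like that of the P2X members, can depend on the choice of members, made with earlier results of these data known. Among the 7 P2Y genes alone, P2ry6 held 48.5% and P2ry12 30.7%.

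**Figure D2:**
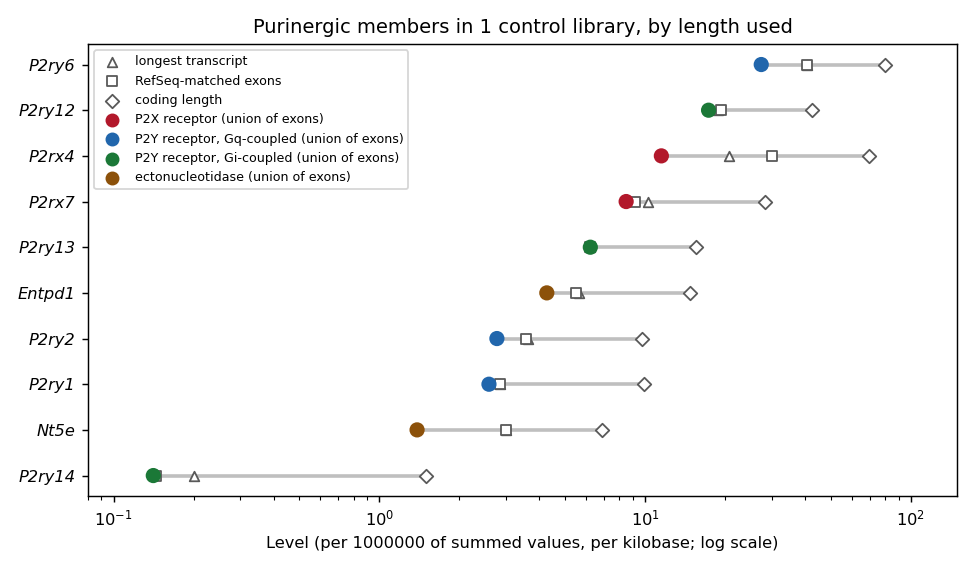
Level of each member under 4 ways of taking gene length (log scale, per 1000000 of summed values and per kilobase). Filled circles use the union of annotated exons, open symbols the longest transcript, the exons of RefSeq-matched transcripts and the coding length, and grey bars span the 4 values, not an error between cultures. P2ry6 is highest and P2ry14 lowest with each length, while P2ry12 and P2rx4 change places.

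The order of the members by level was P2ry6, P2ry12, P2rx4, P2rx7, P2ry13, Entpd1, P2ry2, P2ry1, Nt5e and P2ry14. No replicate error was available to separate neighbours, so neighbours within 1.5 times of each other are named as close: these were P2rx4 and P2rx7 (1.36), P2rx7 and P2ry13 (1.36), P2ry13 and Entpd1 (1.46), and P2ry2 and P2ry1 (1.07). P2ry12 was 1.51 times P2rx4 with the union of exons and 0.610 times with coding length, so the second place was held by either gene. P2ry1 was 1.86 times Nt5e but 0.955 times with RefSeq-matched exons. With each of the 4 lengths, P2ry6 was first and P2ry14 last, and P2rx7, P2ry13 and Entpd1 kept their places.

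The member ectonucleotidases Entpd1 and Nt5e were lower than the leading receptors P2ry6, P2ry12, P2rx4 and P2rx7. Entpd1 (chromosome 19, 40612366 to 40741602, plus strand) had a value of 657 and a level of 4.27, above 53.1% of detected genes. Nt5e (chromosome 9, 88327197 to 88372092, plus strand) had a value of 329 and a level of 1.39, above 29.6%. The level of Entpd1 was thus 3.08 times that of Nt5e (1.83 to 3.08 over the gene lengths).

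Entpd1 was not the only surface ATPase gene of its family in the library. Entpd2, which encodes an enzyme that prefers ATP over ADP, had a value of 582 and a level of 9.92, and the ratio of Entpd1 to Entpd2 was 0.431. This ratio rose to 1.04 with coding length. Exons of Entpd2 overlap Npdc1 (value 2029) on the same strand over 612 bases, so its count is uncertain. The other surface members, Entpd3 and Entpd8, had values of 4 and 1 and were not detected. For the step from AMP to adenosine, the level of Nt5e was 1.53 times that of Alpl (tissue-nonspecific alkaline phosphatase, level 0.908; 1.53 to 2.96 over the gene lengths) and 5.50 times that of Acpp (prostatic acid phosphatase, level 0.252; 4.67 to 9.61). Nt5e held 54.4% of the summed level of these 3 genes.

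Of the list of 14 further ectonucleotidase genes, 11 were detected, against 67.2% of all rows. With the union of exons, the highest levels were those of Entpd4 (11.2), an enzyme of the Golgi and lysosomes, Entpd2 (9.92) and Cd38 (8.88), an NAD-consuming ectoenzyme. With coding length, Cd38 (37.9), Enpp1 (19.2) and Entpd5 (15.6) lay above Entpd2 (14.2). Exons of Entpd4 overlap the gene model Gm16867 on the opposite strand over 2110 bases. No gene of this group was listed at 0.

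The adenosine receptors, which act downstream of Nt5e, were all 4 detected. Adora1, the Gi-coupled A1 receptor, had a value of 686 and a level of 4.30, and its exons overlap Mybph (value 129) on the opposite strand. The Gs-coupled receptors Adora2b and Adora2a had levels of 0.904 and 0.249, with values of 46 and 21, and Adora3 had a level of 0.428. Of the 10 genes for adenosine uptake and metabolism, 8 were detected. The share over all rows was 67.2%. With the union of exons, the highest were Pnp (purine nucleoside phosphorylase, level 23.7), the equilibrative transporter Slc29a1 (17.9) and Ada (adenosine deaminase, 11.5). With coding length, Slc29a3 (32.9) and Adk (22.8) lay above Ada (21.7). With the longest transcript, Slc29a1 (32.4) lay above Pnp (32.0). The concentrative transporter Slc28a1 was listed at 0.

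Routes of ATP release were uneven. Gja1 (connexin 43), a hemichannel subunit of astrocytes, had a level of 14.8 and Lrrc8a, the obligatory subunit of volume-regulated anion channels, a level of 13.7. With the other gene lengths Gja1 ran from 39.1 to 133 and Lrrc8a from 13.8 to 24.4, so Gja1 was then clearly higher. Most exon bases of Lrrc8a are shared with the same-strand gene model Gm28035. Panx1, the pannexin that cooperates with P2X7, had a value of 118 and a level of 0.710, and Panx2 and Panx3 were listed at 0. The level of P2rx7 was 8.48 to 13.8 times that of Panx1 over the 4 gene lengths. Slc17a9, the vesicular nucleotide transporter, had a value of 44 and a level of 0.499.

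Genes that act with P2X7 and P2Y12 were all detected (9 of 9, against 67.2% of all rows), with levels from 3.92 to 27.3. Casp1 had the highest level in this group (27.3), followed by Gsdmd (17.1) and Nlrp3 (11.1). This order holds for the union of exons. With coding length, Nek7 (67.4) and Pycard (62.3) lay above Casp1 (33.9). The level of P2rx7 was 0.762 times that of Nlrp3 and 0.311 times that of Casp1. Over the gene lengths these ratios ran from 0.762 to 1.95 and from 0.311 to 0.837. Kcnk13, the potassium channel THIK-1 that P2Y12 opens in microglia, had a value of 544 and a level of 6.34, so the level of P2ry12 was 2.74 times that of its channel.

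Receptors related to the P2Y family by sequence, and the P2Y genes beyond the members, were mostly not detected. Of 6 listed genes, 5 had a row and 1 was detected. This was Gpr34, a lysophosphatidylserine receptor of microglia, with a value of 1276 and a level of 22.1. Gpr17, P2ry10 and Gpr171 had values of 4, 6 and 8. P2ry10b was not analysed here. Over all 53 further purinergic genes with a row, 40 were detected, 4 were listed at 0 and the median level was 1.60, against 10 of 10 detected and a median of 5.25 for the members. Of all rows, 67.2% were detected. Members and lists were chosen with earlier results of these data known, so this contrast can depend on the choice and is a description only.

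**Figure D3:**
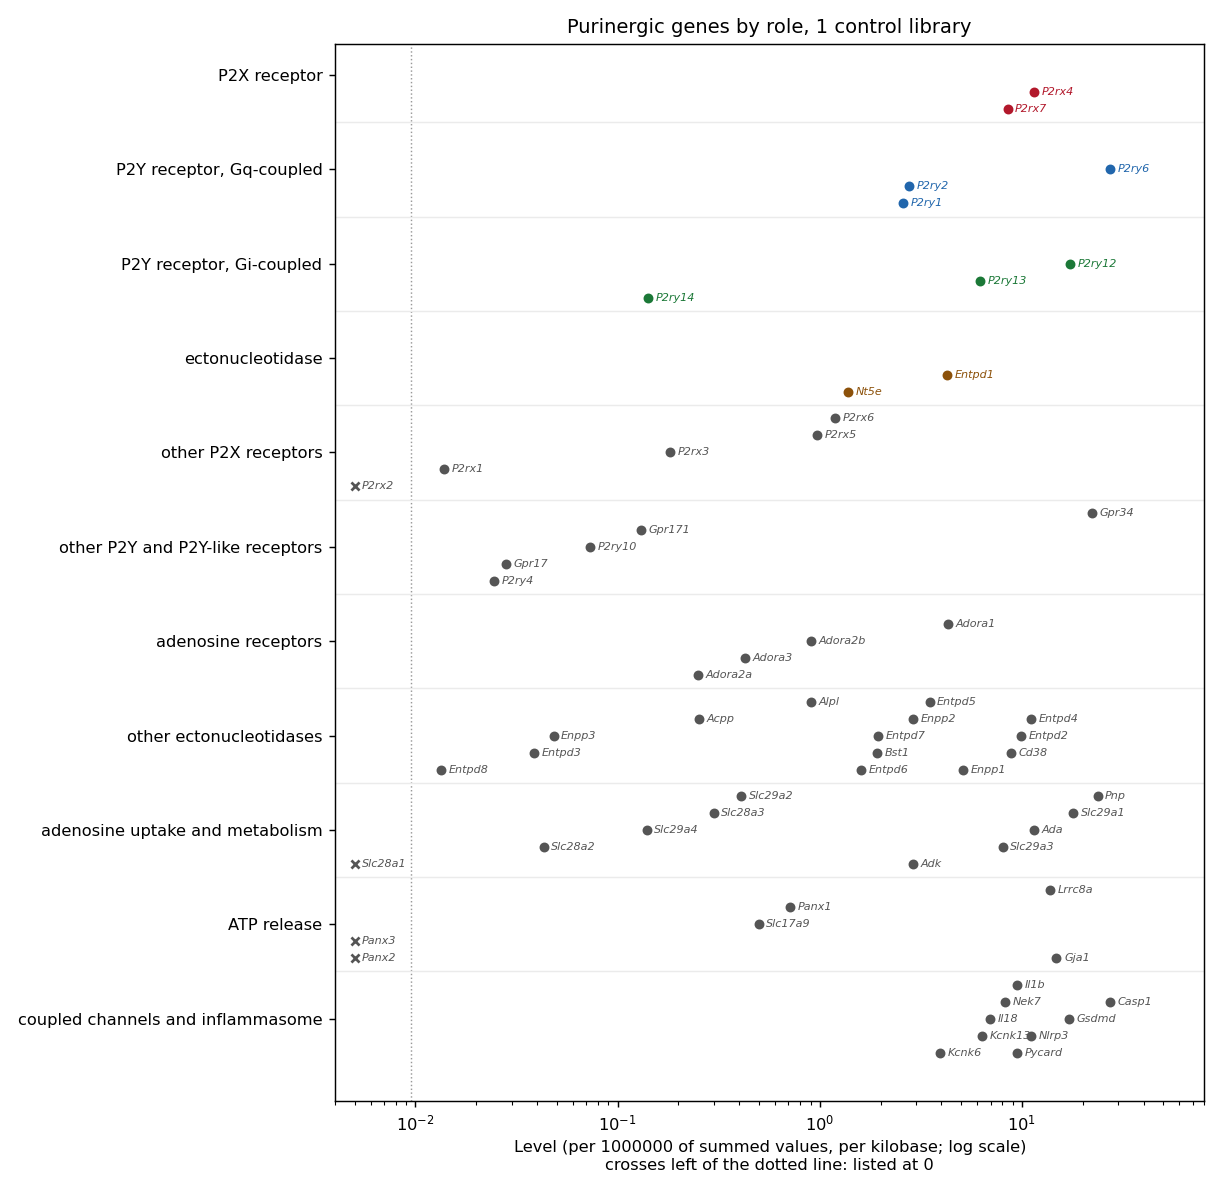
Levels of all listed purinergic genes by role in the control library (log scale, per 1000000 of summed values and per kilobase). Each point is 1 gene, members are coloured by role, other genes are grey, and crosses left of the dotted line mark the 4 genes listed at 0. Among the P2X and P2Y rows beyond the members, Gpr34 at 22.1 is the gene above 2.

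The level of a member in mixed glia depends on which cells were present, and in such a culture fewer cells of a type and less RNA per cell cannot be told apart. Microglial, astrocytic and mesenchymal markers were therefore read beside the members. The study describes its VM glial cultures as mostly GFAP-positive astrocytes, with IBA1-positive microglia as a minority. In this library the median level was 197 over the microglial markers, 17.5 over the astrocyte markers and 27.0 over the mesenchymal markers. Levels of different marker genes do not give shares of cells. Whether this culture had the described mix of cells was not tested. Of all rows, 67.2% were detected. All 9 microglial markers were detected, from Trem2 at a level of 42.5 to C1qa at 1138, and with the union of exons each lay above every member. P2ry6 was at 0.644 times the level of Trem2 (0.221 to 0.924 over the gene lengths) and 0.0241 times that of C1qa (0.0241 to 0.0499). Of 10 astrocyte markers 9 were detected, with Gfap highest at 148, and Gjb6 (value 4, level 0.0543) was not. All 8 mesenchymal markers were detected, from Lum at 6.74 to Acta2 at 438. Oligodendrocyte lineage markers ran from Sox10 at 0.571 to Mbp at 47.0, and all 6 were detected. All 6 listed neuronal markers, of which 4 were detected, ran from Slc17a6, listed at 0, to Tubb3 at 2.41, and the 6 endothelial markers, of which 4 were detected, from Tek, listed at 0, to Flt1 at 6.52. Which of these cells carried each member was not tested.

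P2ry12 is used as a marker of homeostatic microglia, and its level was placed within a list of such genes. The list ran from Slc2a5 at 0.128 to Fcrls at 138, with a median of 17.0, and P2ry12 at 17.4 lay near that median. The level of P2ry12 was 1.13 times that of Tmem119 (0.999 to 1.21 over the gene lengths), 2.19 times that of Siglech (1.58 to 2.19) and 0.784 times that of Gpr34 (0.784 to 1.03). It was 0.204 times that of Cx3cr1 (0.118 to 0.221), which encodes the fractalkine receptor. P2ry12 was thus within 1.5 times of Tmem119 and of Gpr34 with each length, while Cx3cr1 was far higher. With the union of exons, Olfml3 was at 18.6 and Sall1 at 2.00. The listed genes thus differed widely, and P2ry12 was close to only part of them.

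**Figure D4:**
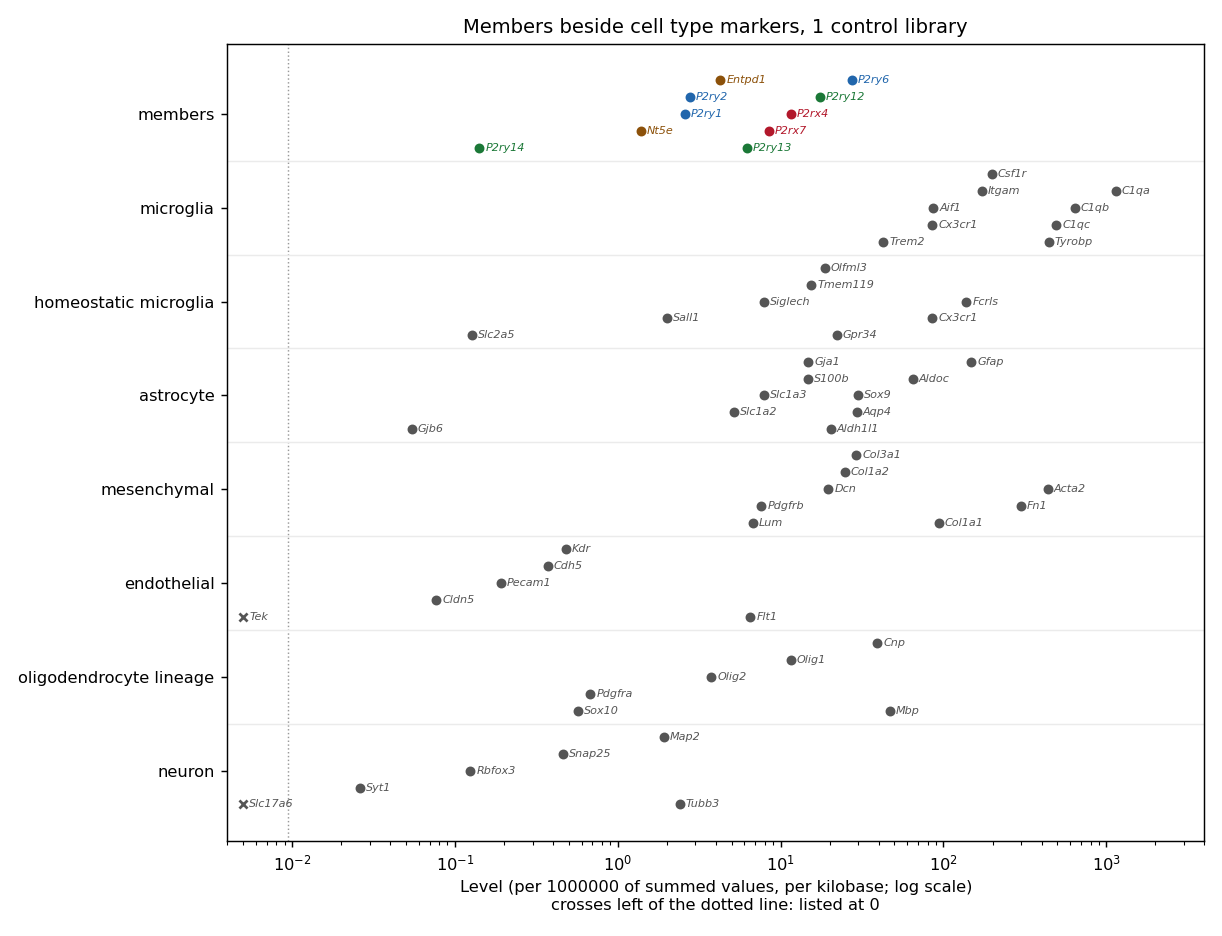
Levels of the members and of cell type markers in the control library (log scale, per 1000000 of summed values and per kilobase). Each point is 1 gene and crosses left of the dotted line are genes listed at 0. All microglial markers (42.5 to 1138) lie to the right of the members, whereas the ranges of all the other marker lists overlap that of the members.

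Of the 8 receptor genes, 7 lie in 3 neighbourhoods of the genome, which allowed adjacent genes to be compared. On chromosome 3, the P2Y genes sit inside Med12l (59005825 to 59318682, plus strand) on its opposite strand. From left to right along this array the levels were 0.130 for Gpr171, 0.141 for P2ry14, 6.23 for P2ry13 and 17.4 for P2ry12. Med12l itself had a value of 185 and a level of 0.526, and the next gene, Igsf10, a level of 0.629. High levels were thus found in the adjacent pair P2ry13 and P2ry12, and low ones in P2ry14 and Gpr171. On chromosome 7, P2ry6 at 27.4 lay between Arhgef17 at 2.93 and P2ry2 at 2.77. On chromosome 5, P2rx7 at 8.49 and P2rx4 at 11.5 were flanked by Ift81 at 4.12 and Camkk2 at 2.41. Beyond Camkk2, Anapc5 was at 28.5, above both of these members. P2ry1, which is also on chromosome 3, lies apart from this array.

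**Figure D5:**
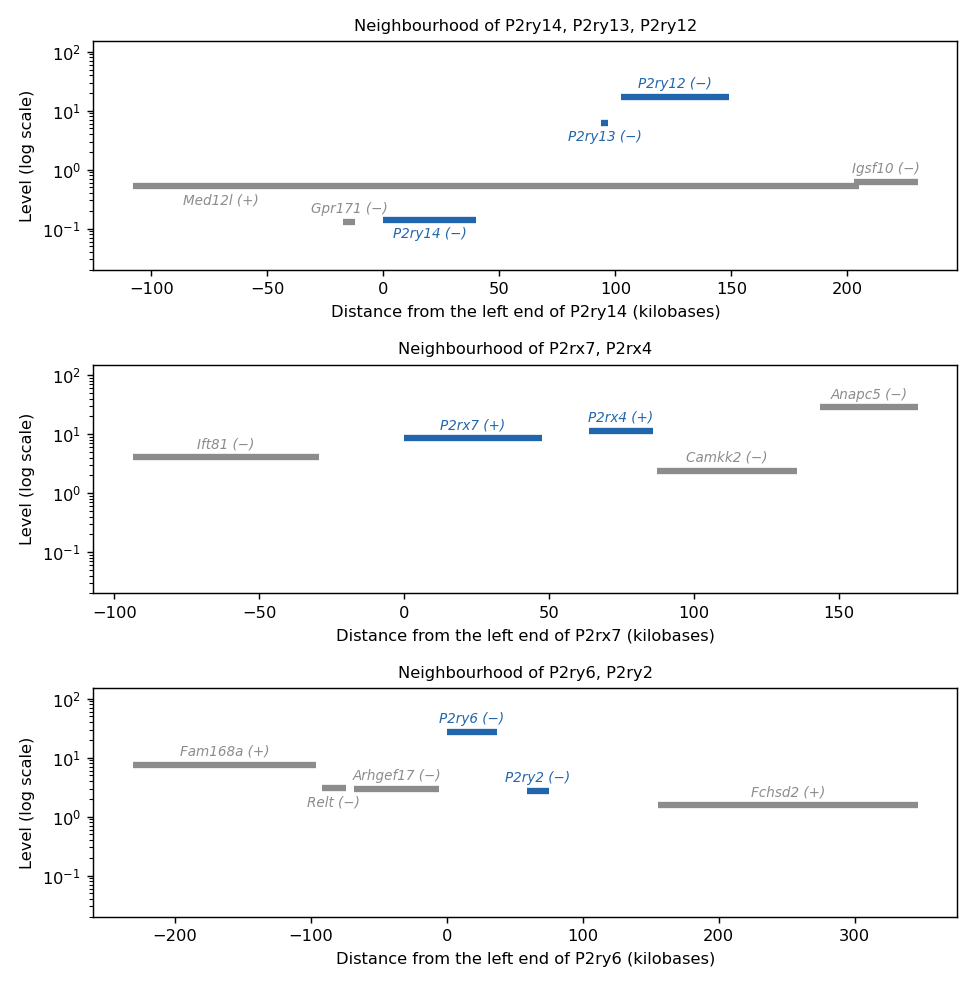
Levels of genes with a value above 0 within 100 kilobases of the clustered receptor genes. The horizontal axis is the distance in kilobases from the left end of the leftmost member, the vertical axis the level (log scale), bars span each gene, blue marks members, and signs give the strand. P2ry13 and P2ry12 (6.23 and 17.4) rise above P2ry14, Gpr171 and the surrounding Med12l.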

How the data were processed

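RNA from 1 control culture was sequenced after library preparation with a SMARTER mRNA-Seq kit. Per the study's methods, reads were trimmed at a quality of 20, mapped to GRCm38/mm10 with STAR and counted on RefSeq exons with HTSeq-count, whereas the submitters' processing notes name TopHat and edgeR. The authors deposited 1 whole-number score per gene, described as a normalised read count. The kind of normalisation, strand setting, handling of multi-mapped reads and tool versions were not given in the sources used here. The study's methods also name FPKM, a value scaled by gene length. A deposited value already scaled in this way would be corrected for length again in the levels, which was not tested. The sum of the values was 27569507, and the number of reads behind it is unknown, so no interval or detection limit is given.

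A level was computed as value per 1000000 of the sum and per kilobase of exon (GENCODE M21, GRCm38; 22900 of 23282 rows matched, 670 of them by an older symbol). Lengths thus come from a different gene set than the counting. Percentiles are among the 15486 genes with a value of 10 or more and a length. The code for levels, percentiles and shared runs was checked on simulated data. That check does not test the length correction on these deposited values. Transcripts were compared by exact words of 50 bases. All members are named, with the 3 highest genes and those listed at 0 of each pathway group and the highest and lowest marker of each list. Other genes were named for their role or position, with values known. The members and lists were chosen with earlier results of these data known, and some listed genes are not reported here. Python 3.11.15, numpy 2.4.6, pandas 2.3.3 and matplotlib 3.10.9 were used.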

Additional observations from a re-analysis of the deposited data

How the results depend on the processing

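The lack of a replicate limits all values to this library, and the unknown normalisation and read length limit comparisons between genes. All 10 members were at 1 or more and 9 were at 100 or more, P2ry14 being the exception. Of the 53 further purinergic genes, 49 were at 1 or more and 30 at 100 or more. The median level of the members, 5.25, became 5.94 with the longest transcript, 15.2 with coding length, 5.85 with RefSeq-matched exons and 6.06 with a total that left out the 10 highest genes. A shorter length or a smaller total raises a level by construction. The median percentile of the members, 57.5, became 63.4 among genes at 1 or more, 52.8 with no length correction and 52.1 with RefSeq-matched exons. In the upper 25% were 3 members in place of 2 with the longest transcript, with RefSeq-matched exons (P2rx4 joining) and with no length correction, where P2rx4 and P2rx7 entered and P2ry12 did not. In the order of the members, 6 of 10 kept their place with the longest transcript, 6 with coding length and 6 with RefSeq-matched exons. The pairs that changed places were P2ry12 and P2rx4 under all of these lengths, P2ry1 and Nt5e with the longest transcript and RefSeq-matched exons, and P2ry1 and P2ry2 with coding length. RefSeq-matched exons were chosen after seeing the data. No paired analysis was possible because there was 1 library.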
